A study of Homo sapiens and Mus musculus with 18 samples.

Results

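The matrix metalloproteinases (MMPs) and their 4 tissue inhibitors (TIMPs) were described in a human mesothelial cell line and in mouse tumours in which the receptor AMHR2 had been altered. Members were chosen by symbol, as every protein-coding gene named MMP or TIMP with a number. This gave 27 of 58735 human genes, of which 23 are MMPs and 4 TIMPs, and 26 of 54532 mouse genes, of which 22 are Mmps and 4 Timps. In each species 1 further gene has a matching name but is annotated as a pseudogene, MMP23A in the human table and Mmp1a in the mouse table, and was left out.

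MMPs are zinc-dependent endopeptidases that cut collagens, laminins, proteoglycans and other extracellular proteins, and most are secreted or membrane-anchored proenzymes that other proteinases activate. TIMPs bind the active site of MMPs and block it, and a complex of MMP14 with TIMP2 at the cell surface is the main activator of pro-MMP2. In mesothelium and in ovarian tumours these genes are studied for matrix remodelling and peritoneal invasion. Bulk samples were used throughout, so fewer cells of a type and less RNA per cell cannot be told apart.

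AMHR2 binds anti-Müllerian hormone, a ligand of the TGF-beta family. Met5a, an immortalised human line of mesothelial cells, was sequenced as 4 libraries overexpressing the receptor form Amhr2-V1 (V1), described as active, 3 libraries overexpressing Amhr2-V3 (V3), described as inactive, and 3 control libraries tagged WT (CTR). The labels give neither the vector nor its promoter, nor what the CTR cells received, nor whether separate cultures gave the libraries, so p-values measure the spread between these libraries, which may be technical. KPCA, a mouse line that models serous ovarian carcinoma of high grade, gave 8 tumours, of which 4 are titled for Amhr2 knock-out mice (KO), 2 for heterozygous mice (Het) and 2 for wild-type C57BL6J mice (WT). Only the titles give the tumour groups, since the genotype tag reads WT for all 8. The labels do not say whether the tumour cells themselves lack Amhr2, and give no ages. All groups share culture of the lines in DMEM with 10% serum.

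Promoter sequences are shown for 4 human members as examples of the kinds of promoter found among those searched. RefSeq sequence on GRCh38.p14 was at hand for 15 of the 27 human members, and the 250 bases before the RefSeq start were searched on both strands for short motifs. An AP-1 site, bound by FOS and JUN proteins, was read as TGANTCA, which occurs in 6.57% of 35116 human promoters of that length. The core element that sets the start of many regulated genes was read as TATAAA, which occurs in 10.7% of them. A match was counted at any position, so it need not be that element. A GC box, bound by factors such as SP1, was read as GGGCGG, which occurs in 42.6%. Of the 15 members, 8 had a GC box and 6 had TATAAA, none had both, and MMP27 had neither. TGANTCA was found in 3 members, MMP7, MMP10 and MMP20, each of which also had TATAAA. Capitals mark the matched letters, read as CCGCCC where a GC box lies on the other strand. The MMP10 promoter lies at chr11:102780629-102780878, minus strand, that of MMP14 at chr14:22836335-22836584, plus strand, that of TIMP1 at chrX:47582186-47582435, plus strand, and that of MMP24 at chr20:35226440-35226689, plus strand.
MMP10: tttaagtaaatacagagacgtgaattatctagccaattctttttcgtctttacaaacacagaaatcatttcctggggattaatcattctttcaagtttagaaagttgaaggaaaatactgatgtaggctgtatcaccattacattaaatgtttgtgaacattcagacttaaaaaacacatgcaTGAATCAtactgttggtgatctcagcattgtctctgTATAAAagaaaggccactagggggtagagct
MMP14: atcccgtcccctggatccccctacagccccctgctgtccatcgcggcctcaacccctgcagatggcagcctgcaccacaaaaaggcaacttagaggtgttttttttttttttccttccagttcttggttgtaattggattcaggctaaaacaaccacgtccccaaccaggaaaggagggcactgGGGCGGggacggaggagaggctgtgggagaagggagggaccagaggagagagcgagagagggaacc
TIMP1: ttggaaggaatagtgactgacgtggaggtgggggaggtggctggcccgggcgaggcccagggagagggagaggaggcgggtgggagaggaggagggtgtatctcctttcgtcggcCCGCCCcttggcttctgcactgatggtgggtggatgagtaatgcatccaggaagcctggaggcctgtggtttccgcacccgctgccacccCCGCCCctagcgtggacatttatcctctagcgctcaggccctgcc
MMP24: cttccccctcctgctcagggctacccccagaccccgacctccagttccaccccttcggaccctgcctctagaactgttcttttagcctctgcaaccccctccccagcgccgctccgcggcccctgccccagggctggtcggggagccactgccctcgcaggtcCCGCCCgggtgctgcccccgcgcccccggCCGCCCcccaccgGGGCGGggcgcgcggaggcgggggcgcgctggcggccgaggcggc
The 8 members with a GC box (MMP11, MMP14, MMP15, MMP23B, MMP24, TIMP1, TIMP3 and TIMP4) had mean levels of 0.0128 to 130.2 FPKM over the 10 Met5a libraries, and 5 of them reached 1 FPKM. FPKM is the deposited count scaled by gene length and library, and is the scale on which levels of different genes were compared. The 6 members with TATAAA (MMP7, MMP8, MMP10, MMP20, MMP21 and MMP26) had means of 0 to 2.54 FPKM, and MMP10 alone reached 1 FPKM, through a single library. TATAAA began at -31, -30 and -28 from the start in MMP10, MMP7 and MMP26. It lay farther away, at -72, -92 and -110, in MMP20, MMP21 and MMP8, so these members are not all of 1 kind. TIMP2, MMP1, MMP2, MMP16 and MMP19, which also reached a mean of 1 FPKM, had no sequence at hand. Promoter kind and level were therefore not compared over the whole family. A match of letters is a description of these windows and shows no binding.

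Libraries held 15489888 to 21642906 counts in Met5a cells and 17746902 to 28070669 counts in tumours. AMHR2 measured 68.1, 20.6, 1.98 and 5253 CPM (counts scaled to TMM-adjusted library sizes) in V1 cells and 6061, 61.8 and 2.72 CPM in V3 cells, against 0 CPM in all 3 CTR libraries. V1 3 and V3 3 thus had little of the receptor that their labels name, and gene counts do not tell the forms apart, so whether the label of each library matches its cells could not be settled. The most alike pair of all 10 libraries, V1 4 and V3 1 (r = 0.991 over genes), came from different groups and were also the libraries with the most AMHR2. V1 1 and CTR 3 stood farthest from the rest (best r of 0.947 and 0.942) and had the largest mitochondrial shares of counts, 4.93% and 5.09%. In tumours Amhr2 lay between 0 and 0.583 CPM in every library and did not separate the groups, so it checks no label. KO543 and WT438 stood apart, with mitochondrial shares of 4.33% and 4.87% against 1.22% to 2.32% in the other 6 tumours. Met5a cells had KRT8 at 746 to 3141 CPM and mesothelin (MSLN) at 10.6 to 70.3 CPM. Of the other mesothelial markers, KRT19 was at most 0.678 CPM, KRT5 lay at 0.173 to 51.6 CPM, and WT1 was at 0 CPM in 3 libraries and at most 3.88 CPM. Tumours had Krt8 at 1125 to 2023 CPM and Epcam, an epithelial adhesion protein, at 119 CPM in KO543 and at most 1.75 CPM elsewhere.

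In Met5a cells the family was dominated by 2 inhibitors and 1 membrane-type enzyme. TIMP1, a secreted inhibitor of most MMPs, averaged 130.2 ± 40.4 FPKM (SD, n = 10 libraries), TIMP2 averaged 84.3 ± 21.4 FPKM and MMP14, the membrane-type collagenase MT1-MMP, averaged 65.6 ± 23.6 FPKM. TIMP1 lay above TIMP2 in 9 of 10 libraries, and TIMP2 above MMP14 in 8 of 10. A second tier held MMP24 (13.3 ± 3.04 FPKM) and MMP15 (12.8 ± 4.16 FPKM), which are further membrane-type enzymes, and TIMP3 (11.7 ± 3.16 FPKM), the inhibitor that binds to the matrix. These 3 were not separable, since each lay above the next in 6 of 10 libraries. MMP14 lay above MMP24 in all 10. The top 6 were the only members with a mean of at least 10 FPKM, and 11 had a mean of at least 1 FPKM.

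At the low end, MMP20, MMP26 and MMP27 had 0 counts in all 10 libraries, which allows up to 0.140 to 0.177 CPM per library, for counting error only. These are the enamel enzyme enamelysin, matrilysin 2 and a poorly characterised enzyme. MMP7, MMP8, MMP21 and TIMP4 stayed under 1 CPM in every library, at most 0.405 CPM. MMP12, the macrophage elastase, and MMP28, epilysin, reached 1.62 CPM in V1 1 and 1.18 CPM in CTR 3. With MMP10 these 10 members did not pass the filter on low counts (edgeR filterByExpr, minimum count 10) and were not tested, so 17 of 27 human members were.

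**Figure D1:**
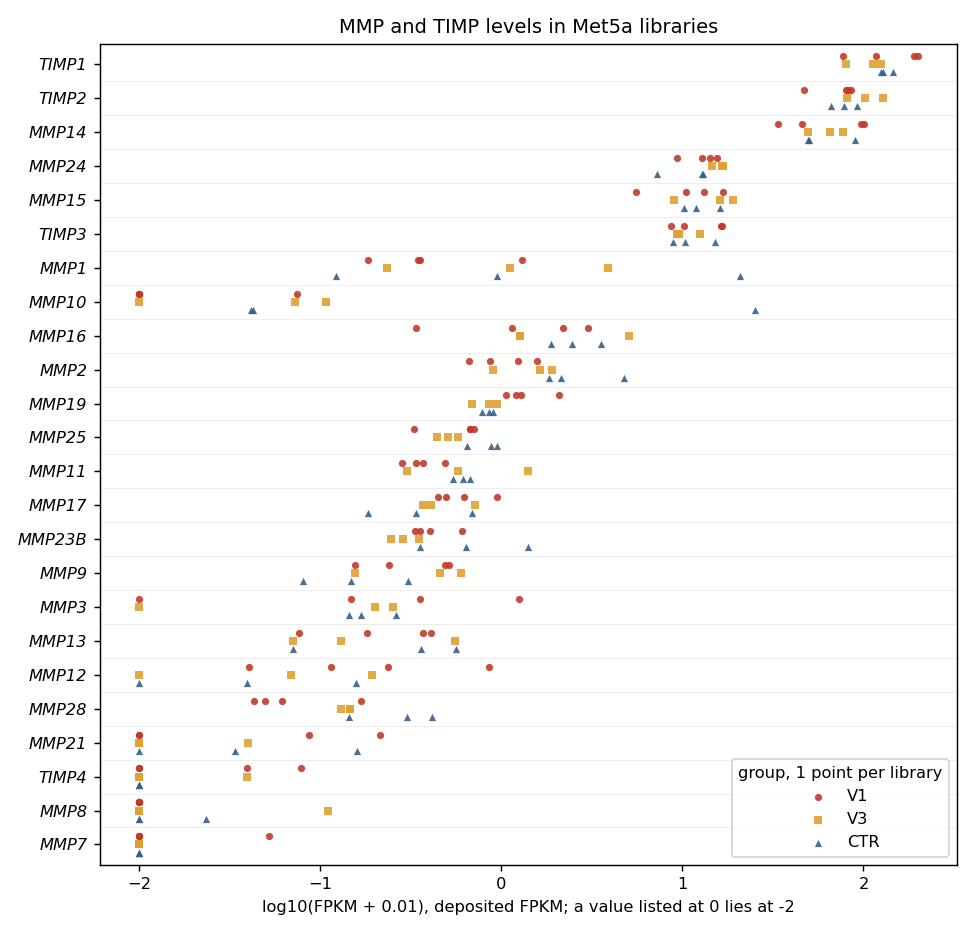
Level of each human member with counts in any of the 10 Met5a libraries, as log10(deposited FPKM + 0.01) on the horizontal axis. Each point is 1 library, coloured by group (V1, V3, CTR), and members are sorted by mean level. MMP20, MMP26 and MMP27, at 0 counts in all 10 libraries, are not drawn. TIMP1, TIMP2 and MMP14 lie at the top in all groups, and the CTR 1 points of MMP1 (20.8 FPKM) and MMP10 (25.1 FPKM) stand far to the right of the others.

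In V1 against V3 cells, which by their labels set the active form of the receptor against the inactive one, 0 of 17 members passed the test (edgeR quasi-likelihood test, Benjamini-Hochberg adjusted p under 0.05), as did 0% of the 17175 genes tested. DESeq2 called 0 members too. An unadjusted p under 0.05 was seen for 1 member in edgeR and 2 in DESeq2. MMP19, a widely expressed MMP also known as RASI-1, was the only member whose groups did not overlap, against 4.92% of all genes tested (2.28% higher and 2.64% lower). It measured 9.90, 6.05, 5.60 and 5.04 CPM in V1 cells, against 4.03, 4.46 and 3.18 CPM in V3 cells. Every V1 library lay above every V3 library. That 1 of 17 is close to the share of all genes and is read as no result about the family. The log2 fold change was 0.77 (SE 0.33, adjusted p = 0.985, exact permutation p = 0.0571, two-sided, 35 arrangements), and it was 0.51 without V1 1, the highest library. Leaving out V1 3, V1 4, V3 1 or V3 3, the libraries with the least or the most AMHR2, gave 0.85, 0.89, 0.80 and 0.63.

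The inhibitors did not separate the receptor forms. TIMP1 measured 122, 314, 291 and 185 CPM in V1 cells, against 197, 178 and 123 CPM in V3 cells. V1 2 and V1 3 were highest and V1 1 was lowest, so the V1 group spanned the V3 group (log2 fold change 0.46, 95% interval -0.20 to 1.12). TIMP2 measured 272, 487, 450.4 and 469 CPM in V1 cells, against 466, 583 and 729.6 CPM in V3 cells. V1 1 was the lowest library and V3 3 the highest, and the groups overlapped (log2 fold change -0.50, 95% interval -1.04 to 0.047). TIMP3 measured 77.1, 77.5, 46.6 and 40.4 CPM in V1 cells, against 44.5, 59.0 and 43.0 CPM in V3 cells (log2 fold change 0.31, 95% interval -0.30 to 0.92). V1 1 and V1 2 lay above all V3 libraries, and V1 4 below them.

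Membrane-type enzymes overlapped likewise. MMP14 measured 155, 454, 429 and 208 CPM in V1 cells, against 224, 298 and 345 CPM in V3 cells. The V1 libraries fell into a high pair, V1 2 and V1 3, and a low pair, V1 1 and V1 4, on either side of most V3 values (log2 fold change 0.11, 95% interval -0.72 to 0.94). MMP24 measured 70.8, 41.7, 56.2 and 63.8 CPM in V1 cells, against 65.3, 75.8 and 73.1 CPM in V3 cells. MMP15 measured 59.4, 24.8, 45.9 and 75.7 CPM in V1 cells, against 85.3, 72.4 and 40.0 CPM in V3 cells. MMP16, another membrane-type MMP, measured 37.3, 26.8, 3.95 and 14.0 CPM in V1 cells, against 15.6, 15.5 and 61.5 CPM in V3 cells. It was the most variable of the members with a mean over 20 CPM, with V1 3 lowest and V3 3 highest. V1 4 and V3 1, the alike pair, were close in each of these genes (MMP16 at 14.0 CPM in V1 4 and 15.6 CPM in V3 1).

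Over the 17 members the median log2 fold change of V1 against V3 was 0.031, beside 0.031 over all genes tested, with 9 members higher and 8 lower in V1 cells. MMP11, stromelysin 3, had a log2 fold change of -1.04 (with SE 0.48 and adjusted p = 0.985). It measured 1.91, 2.53, 1.69 and 1.45 CPM in V1 cells, against 1.54, 2.99 and 7.22 CPM in V3 cells. V3 1 lay within the V1 values and V3 3 far above them.

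In V1 against CTR cells 0 of 17 members passed the test, beside 0.00582% (1 of 17175) of all genes tested. DESeq2 called 0 members, and 3 members had an unadjusted p under 0.05 in edgeR (MMP1, MMP2 and MMP19). Groups did not overlap for 3 members, MMP19, MMP2 and MMP11, against 6.61% of all genes (3.27% higher and 3.34% lower). MMP2, the gelatinase that MMP14 and TIMP2 activate at the cell surface, had the smallest p-value among the tested members. It measured 7.93, 4.26, 3.20 and 6.14 CPM in V1 cells and 4.48, 9.49 and 8.09 CPM in V3 cells, against 9.07, 10.7 and 24.0 CPM in CTR cells. All V1 libraries lay below all CTR libraries, and CTR 3 was far above the other 2 controls. The log2 fold change was -1.44 (SE 0.43, adjusted p = 0.569, exact permutation p = 0.0571), and it was -0.88 without CTR 3. CTR 3 also had the largest mitochondrial share of the 10 libraries. CALB2, a mesothelial marker, measured 2.08, 0.446, 0.941 and 6.37 CPM in V1 cells and 6.62, 3.90 and 3.47 CPM in V3 cells, against 18.3, 15.3 and 57.5 CPM in CTR cells. All V1 and V3 libraries thus lay below all controls in CALB2. PDPN, another such marker, measured 0.347, 0.149, 0.0470 and 14.8 CPM in V1 cells and 15.5, 17.4 and 18.1 CPM in V3 cells, against 5.99, 12.0 and 12.9 CPM in CTR cells, and was near 0 in V1 1, V1 2 and V1 3 only. The sum of 12 mesothelial markers was 1728 to 5313 CPM in V1 cells, 2434 to 5420.4 CPM in V3 cells and 2556 to 5993 CPM in CTR cells, with overlapping groups. KRT8, KRT18 and KRT7 made up most of it, and 0 to 2 of the 12 markers were at 0 in a library. The part of these markers and of the mitochondrial share in the MMP2 difference was not tested.

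MMP19 measured 9.90, 6.05, 5.60 and 5.04 CPM in V1 cells, against 4.02, 4.27 and 3.72 CPM in CTR cells, which were below every V1 library, and its log2 fold change of V1 against CTR was 0.73 (SE 0.33, adjusted p = 0.637). It was 0.47 without V1 1. MMP11 measured 1.91, 2.53, 1.69 and 1.45 CPM in V1 cells, against 3.46, 2.81 and 3.18 CPM in CTR cells, which were above every V1 library (log2 fold change -0.73, SE 0.48, adjusted p = 0.745). Neither passed the test. The abundant members overlapped. TIMP2 lay at 272 to 487 CPM in V1 cells, against 379.8, 449.6 and 531 CPM in CTR cells, and TIMP3 at 40.4 to 77.5 CPM in V1 cells, against 41.3, 48.2 and 70.9 CPM in CTR cells. MMP14 lay at 155 to 454 CPM in V1 cells, against 226, 224 and 407 CPM in CTR cells, where CTR 3 was well above the other 2 controls. MMP15 lay at 24.8 to 75.7 CPM in V1 cells, against 53.3, 72.3 and 46.3 CPM in CTR cells, and MMP16 at 3.95 to 37.3 CPM in V1 cells, against 29.98, 23.0 and 43.8 CPM in CTR cells. The 95% interval of V1 against CTR was -0.53 to 0.79 for TIMP1, -0.66 to 0.44 for TIMP2, -0.43 to 0.78 for TIMP3 and -0.70 to 0.95 for MMP14, on the log2 scale. The median over the 17 members was -0.11, beside 0.010 over all genes, with 8 members higher and 9 lower.

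One control library set MMP1 and MMP10 apart from everything else in the Met5a data. Both are described because of these values. MMP10, stromelysin 2, whose promoter above holds both TATAAA and an AP-1 motif, held 955 counts (44.7 CPM) in CTR 1. In the other libraries it held 0, 0, 0 and 2 counts in V1 cells, 0, 2 and 3 counts in V3 cells, and 1 count each in CTR 2 and CTR 3. MMP1, the interstitial collagenase, measured 2.61, 0.347, 0.659 and 0.695 CPM in V1 cells and 0.448, 7.80 and 2.20 CPM in V3 cells, against 41.5, 0.224 and 1.89 CPM in CTR cells. CTR 1 lay 5.33-fold above the next highest library, V3 2. The fitted log2 fold change of MMP1 in V1 against CTR cells, -3.76 (SE 1.37, adjusted p = 0.597), rested on that library and was 0.040 without it.

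MMP1 and MMP10 are close neighbours in a cluster of 9 members on chromosome 11 (chr11:102520508-102955734, GRCh38), MMP10 at chr11:102770503-102780628 and MMP1 at chr11:102789920-102798160, both on the minus strand. Other members of the cluster had few counts in CTR 1. MMP3 (stromelysin 1) held 7 counts there, MMP12 held 6, MMP8 held 1, and MMP7, MMP20 and MMP27 held 0. MMP13 (collagenase 3) held 34 counts there, its highest value, though V3 2 was level with it (1.58 CPM in V3 2, against 1.59 CPM in CTR 1). CTR 1 was also the highest library for WT1, a mesothelial marker, at 3.88 CPM. V1 1 was the highest library for MMP3 and MMP12, with 45 and 28 counts.

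**Figure D2:**
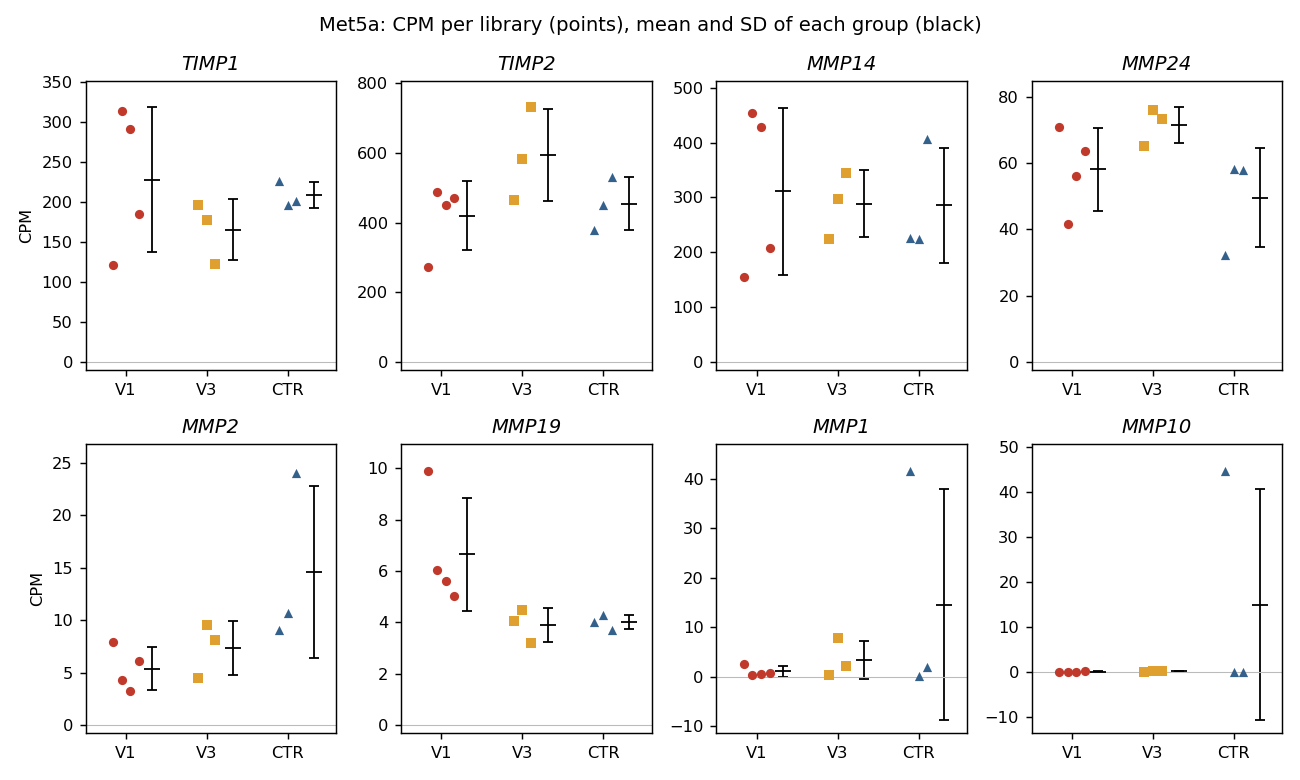
CPM of 8 members in each Met5a library (points) with the group mean and SD in black, for V1 (n = 4), V3 (n = 3) and CTR (n = 3). MMP19 lies higher in all V1 libraries than in V3 or CTR libraries, MMP2 is highest in CTR 3, and CTR 1 alone carries the CTR means of MMP1 and MMP10, whose SD bars therefore run below 0.

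In V3 against CTR cells 0 of 17 members passed the test, beside 0% of all genes tested, and DESeq2 called 0 members. An unadjusted p under 0.05 was seen for 1 member in edgeR (MMP23B) and 2 in DESeq2. Groups did not overlap for 4 members, against 10.1% of all genes (4.93% higher and 5.17% lower). MMP24 was higher in V3 cells (65.3, 75.8 and 73.1 CPM) than in CTR cells (32.4, 58.3 and 58.0 CPM), with a log2 fold change of 0.53 (with SE 0.26 and adjusted p = 0.9998) that was 0.32 without CTR 1. TIMP1 measured 197, 178 and 123 CPM in V3 cells, against 227, 197 and 202 CPM in CTR cells. All V3 libraries lay lower, although the nearest libraries, V3 1 and CTR 2, lay within 1 CPM of each other. Its log2 fold change was -0.33 (SE 0.32, adjusted p = 0.9998), and -0.14 without V3 3.

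MMP25, a membrane-type MMP best known from leukocytes, measured 2.95, 2.78, 1.32 and 2.78 CPM in V1 cells and 2.39, 1.81 and 2.08 CPM in V3 cells, against 3.65, 2.69 and 3.95 CPM in CTR cells (log2 fold change -0.71, SE 0.41, adjusted p = 0.9998 in V3 against CTR cells). All V3 libraries lay below all CTR libraries. MMP23B measured 0.753, 0.793, 0.894 and 1.39 CPM in V1 cells and 0.548, 0.791 and 0.636 CPM in V3 cells, against 0.795, 1.46 and 3.24 CPM in CTR cells (log2 fold change -1.46, SE 0.57, adjusted p = 0.9998). CTR 3 was the highest, and the log2 fold change was -0.76 without it. MMP23B is uncertain besides, because MMP23A is a near-identical copy and the counting could split reads between them. For these 4 members the smallest exact permutation p that 3 against 3 libraries allow is 0.1. The comparisons of V1 and of V3 with CTR share their controls, and MMP2 had a log2 fold change of -0.99 (with SE 0.47 and adjusted p = 0.9998) in V3 cells beside -1.44 in V1 cells. The median over the members was -0.065, beside -0.0043 over all genes, with 7 members higher and 10 lower in V3 cells.

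The balance of inhibitors and enzymes overlapped between the 3 Met5a groups. TIMP transcripts summed to 140.3 to 303 FPKM in V1 cells, 216 to 227 FPKM in V3 cells and 214 to 236 FPKM in CTR cells. MMP transcripts summed to 75.8 to 125 FPKM in V1 cells, 88.5 to 114 FPKM in V3 cells and 86.1 to 127 FPKM in CTR cells. Their ratio was 1.85 to 2.49 in V1 cells, 1.90 to 2.44 in V3 cells and 1.78 to 2.49 in CTR cells. MMP14 alone made up 44.5 to 81.9% of the MMP sum in V1 cells, 55.7 to 67.1% in V3 cells and 40.3 to 70.5% in CTR cells. The lowest share belonged to CTR 1, where MMP1 and MMP10 added to the sum. The remaining tested members were MMP17 at 0.708 to 3.88 CPM, MMP13 at 0.173 to 1.59 CPM, MMP9 at 0.168 to 1.39 CPM and MMP3 at 0 to 2.61 CPM over the 10 libraries, and none of them separated the groups.

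In the tumours the inhibitors Timp2 and Timp1 and the membrane-type Mmp14 again had the highest levels. Timp2 averaged 346 ± 41.4 FPKM (SD, n = 8 tumours) and Timp1 325 ± 83.2 FPKM, and Timp2 lay above Timp1 in 5 of 8 tumours, so their order is not settled. Mmp14 followed at 84.9 ± 17.3 FPKM, below Timp1 and above Mmp13 in all 8 tumours. Mmp13 (48.5 ± 21.2 FPKM), the main rodent interstitial collagenase, Mmp9 (38.7 ± 23.7 FPKM) and Mmp2 (37.6 ± 9.49 FPKM), the gelatinases, and Mmp3 (35.6 ± 20.8 FPKM) came next, and the order of neighbours was not the same in all tumours (Mmp9 lay above Mmp2 in 3 of 8). Of the 26 members, 10 had a mean of at least 10 FPKM and 15 of at least 1 FPKM. Timp4, Mmp1b, Mmp20, Mmp21, Mmp24 and Mmp27 stayed under 1 CPM in every tumour, at most 0.258 CPM and 6 counts, and were not tested, so 20 of 26 were. Mmp24 was thus near 0 in the tumours while MMP24 came next after MMP14 among the MMPs in Met5a cells; the tables differ in species and in culture against tissue, and no test was made across them.

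**Figure D3:**
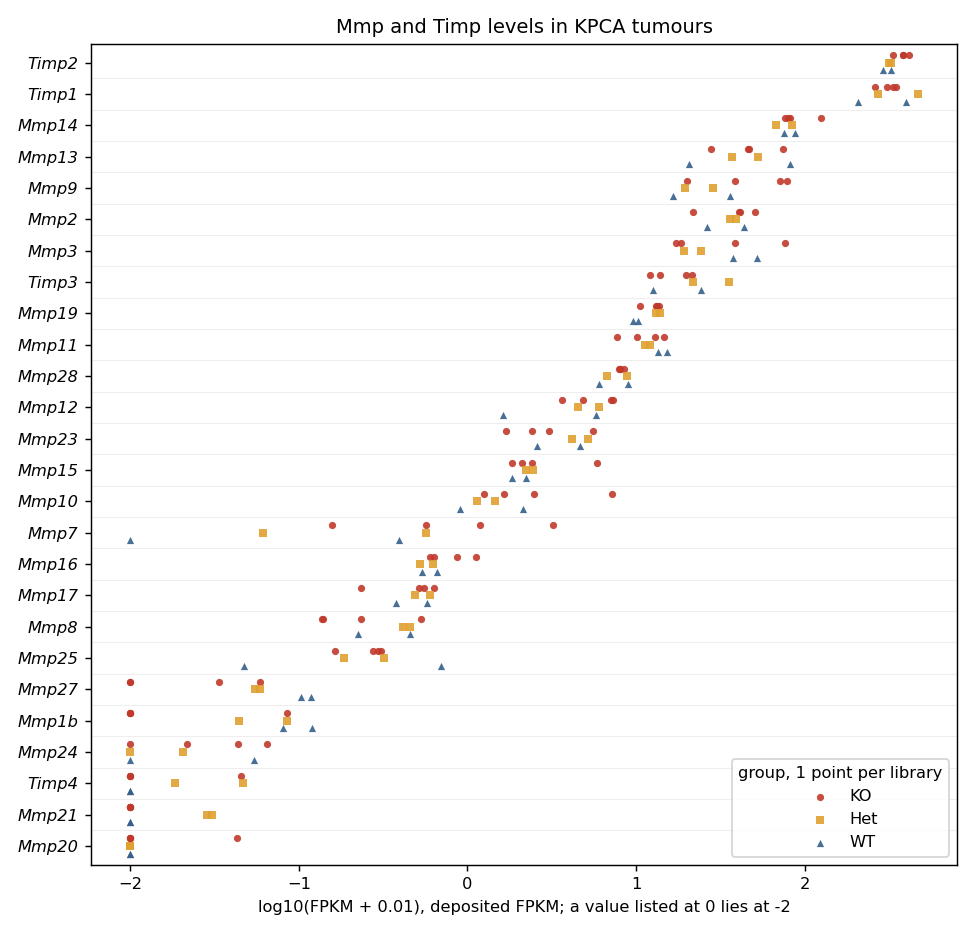
Level of each of the 26 mouse members in each of the 8 KPCA tumours, as log10(deposited FPKM + 0.01), 1 point per tumour, coloured by group (KO, Het, WT) and sorted by mean level. Timp2, Timp1 and Mmp14 lead, and the 6 members at the bottom lie at or near 0 in every tumour.

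In KO against pooled WT and Het tumours, the comparison with 4 tumours on each side, 0 of 20 members passed the test, beside 0% of 15205 genes tested. DESeq2 called 0 members. An unadjusted p under 0.05 was seen for 2 members in edgeR (Mmp9 and Mmp7) and 4 in DESeq2. Timp2 was the only member whose groups did not overlap, against 2.46% of all genes tested (1.35% higher and 1.1% lower). It measured 1501, 1329.9, 1492 and 1620.4 CPM in KO tumours, 1242 and 1272 CPM in Het tumours and 1274 and 1156 CPM in WT tumours. All 4 KO tumours lay above the other 4, with group means of 1486 ± 119 CPM in KO tumours and 1236 ± 55.5 CPM in the others (SD, n = 4 each). The log2 fold change was 0.27 (SE 0.13, 95% interval -0.022 to 0.56, adjusted p = 0.999). The exact permutation p was 0.0286, the smallest that 70 arrangements give. Any gene singled out because its 4 KO tumours lay above the other 4 has this p, so it adds no support. As 1 of 20 members, Timp2 is read as no result about the family. Without KO543 and WT438 the log2 fold change was 0.23.

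The summed level of 9 fibroblast markers (Col1a1, Col1a2, Col3a1, Dcn, Lum, Pdgfra, Pdgfrb, Postn and Fap, none at 0 in any tumour) was 11649 to 14279.9 CPM in KO tumours, 10755 to 10815 CPM in Het tumours and 8769.9 to 9418 CPM in WT tumours. Col1a1 and Col3a1 made up most of this sum, and single markers did not all follow it. Col1a2 measured 1163, 821, 1147 and 751 CPM in KO tumours, 1068 and 1222 CPM in Het tumours and 647 and 1075 CPM in WT tumours, with overlapping groups. KO445 had the highest sum but the lowest Timp2 and decorin (Dcn, 38.3 CPM) of the KO tumours. The part of these markers in the Timp2 difference was not tested. Timp3 measured 162, 115, 175 and 98.8 CPM in KO tumours, 293 and 179 CPM in Het tumours and 102 and 202 CPM in WT tumours. KO tumours lay below both Het tumours and overlapped the WT tumours. In KO against Het tumours its log2 fold change was -0.78 (SE 0.32, adjusted p = 0.9997), and -0.39 without Het563, the highest tumour. Timp1 measured 277, 314, 232 and 297 CPM in KO tumours, 246 and 421 CPM in Het tumours and 355 and 188 CPM in WT tumours, and its groups overlapped in every comparison.

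Mmp9, the gelatinase known from macrophages, neutrophils and tumour cells, had the smallest p-value among the tested members in the pooled comparison. It measured 139, 256, 71.4 and 278 CPM in KO tumours, 69.7 and 103 CPM in Het tumours and 128 and 59.7 CPM in WT tumours. KO543 and KO445 were above all other tumours, while KO479 was among the lowest, so the groups overlapped. The log2 fold change was 1.04 (SE 0.39, 95% interval 0.18 to 1.91, adjusted p = 0.999, exact permutation p = 0.114), and 0.99 without KO543 and WT438. Against WT alone it was 0.98 (SE 0.52) and against Het alone 1.11 (SE 0.52), comparisons that share the KO tumours. Against WT it was 1.64 without WT438 and 0.53 without WT568. The sum of 10 macrophage markers, none at 0 in any tumour, was 1802 to 4207 CPM in KO tumours, 3752 to 3922 CPM in Het tumours and 3842 to 4095 CPM in WT tumours. It was lowest in KO543, the tumour with the most Mmp9, and highest in KO445, the second. The sum of 6 neutrophil markers was 6.34 to 18.6 CPM over all tumours, with S100a8 at 0.382 to 3.34 CPM and Ly6g at 0 to 0.218 CPM. Whether these markers have a part in the Mmp9 difference was not tested.

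Mmp14 and Mmp2, the activator and its target, did not separate the groups. Mmp14 measured 463, 482, 489 and 749 CPM in KO tumours, 409 and 509 CPM in Het tumours and 520.0 and 460.1 CPM in WT tumours. KO543 stood above all others, and the other 3 KO tumours lay within the range of the Het and WT tumours (log2 fold change against the pooled groups 0.20, 95% interval -0.19 to 0.60). Mmp2 measured 142, 139.8, 173 and 73.7 CPM in KO tumours, 123 and 133 CPM in Het tumours and 88.7 and 150.1 CPM in WT tumours. KO543 was the lowest tumour for Mmp2 and KO479 the highest (log2 fold change 0.10, 95% interval -0.44 to 0.64). Mmp15, another membrane-type enzyme, reached 31.6 CPM in KO543 and lay at 9.81 to 13.3 CPM in the other 7 tumours.

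**Figure D4:**
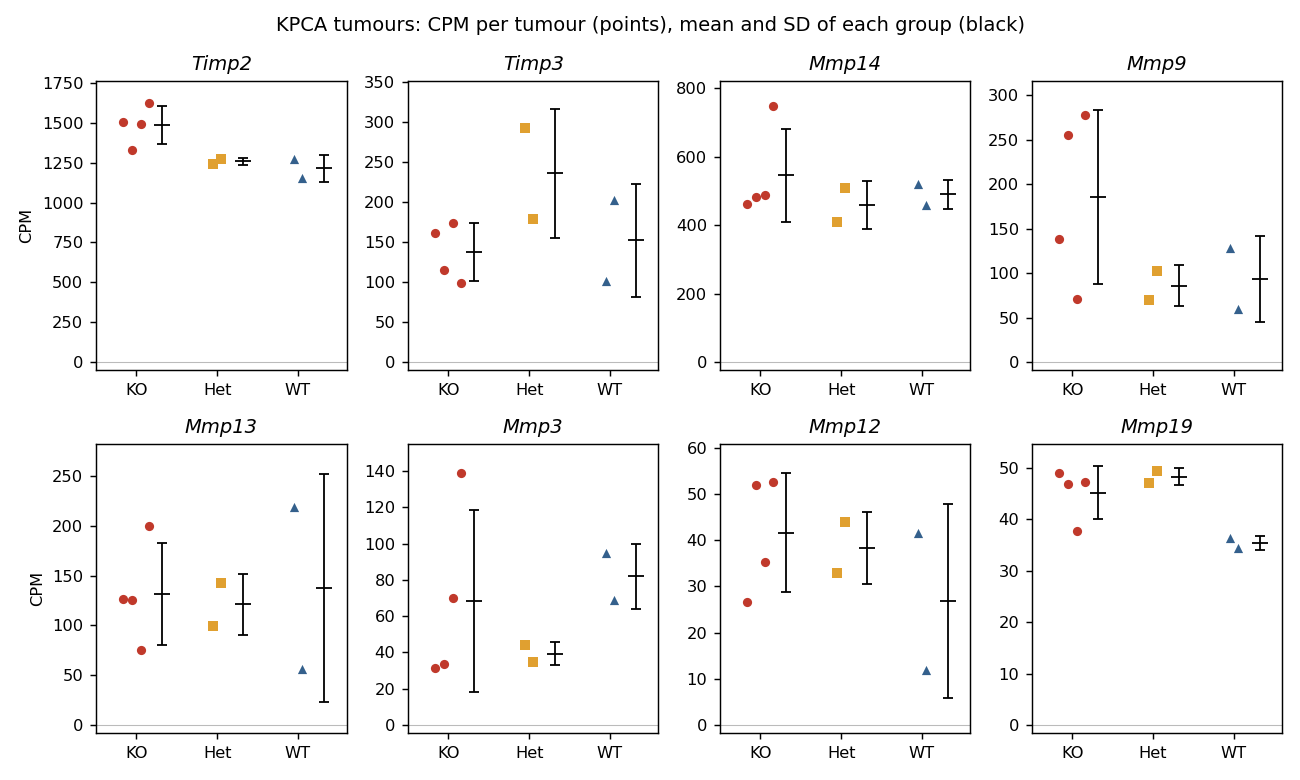
CPM of 8 members in each KPCA tumour (points) with the group mean and SD in black, for KO (n = 4), Het (n = 2) and WT (n = 2). Timp2 lies higher in all 4 KO tumours, Timp3 is higher in both Het tumours than in KO tumours, Mmp19 is lower in both WT tumours, and Mmp14, Mmp9 and Mmp3 are highest in KO543.

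The collagenase and stromelysin genes of the mouse cluster on chromosome 9 (9 members between positions 7272514 and 7699585 of the deposited mouse table, whose genome build the labels do not name) did not separate KO tumours from Het or WT tumours in any of its 6 tested members. Mmp13 measured 127, 126, 75.1 and 199.7 CPM in KO tumours, 99.7 and 143 CPM in Het tumours and 219 and 56.3 CPM in WT tumours. WT438 was highest and WT568 lowest, so the WT group spanned all others. Mmp3 measured 31.2, 33.6, 69.9 and 139 CPM in KO tumours, 43.9 and 34.8 CPM in Het tumours and 94.6 and 69.1 CPM in WT tumours. KO543 was highest, and KO437 and KO445 were lowest. Mmp12, the macrophage elastase, measured 26.6, 52.0, 35.2 and 52.6 CPM in KO tumours, 32.9 and 43.9 CPM in Het tumours and 41.6 and 11.9 CPM in WT tumours. WT568 was far below the rest. Mmp10 ranged over 1.57 to 12.5 CPM and Mmp7 (matrilysin) over 0 to 3.45 CPM, both highest in KO543, which was the highest tumour for 4 of the 6 tested members of the cluster. The fitted log2 fold changes against the pooled groups were 2.36 for Mmp7 (SE 1.06, adjusted p = 0.999) and 1.17 for Mmp10 (SE 0.54). Mmp8, the neutrophil collagenase, stayed at 0.309 to 1.27 CPM.

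In KO against WT tumours 0 of 20 members passed the test, beside 0% of 16287 genes tested, and DESeq2 called 0 members. An unadjusted p under 0.05 was seen for 0 members in edgeR and 2 in DESeq2. Timp2 and Mmp19 did not overlap, against 11% of all genes (5.69% higher and 5.26% lower), so 2 of 20 is near the background. Mmp19 measured 49.0, 46.7, 37.6 and 47.2 CPM in KO tumours, 47.1 and 49.4 CPM in Het tumours and 36.3 and 34.5 CPM in WT tumours. Both WT tumours lay below the other 6. The log2 fold change of KO against WT was 0.35 (SE 0.16, adjusted p = 0.95), and that of Timp2 was 0.29 (SE 0.17, adjusted p = 0.95). The tumour comparisons share tumours with one another. The smallest exact permutation p that 4 against 2 tumours allow is 0.0667. In the deposited tables the names of both WT tumours have an added suffix, so whatever it stands for and the WT genotype cannot be told apart.

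In KO against Het tumours 0 of 20 members passed the test, beside 0% of all genes tested, and DESeq2 called 0 members. An unadjusted p under 0.05 was seen for 1 member in edgeR (Timp3) and 2 in DESeq2. Timp2 and Timp3 did not overlap, against 11.7% of all genes (6.01% higher and 5.68% lower), and the log2 fold change of Timp2 was 0.24 (SE 0.17, adjusted p = 0.9997). In Het against WT tumours 0 of 20 members passed, beside 0% of all genes, and DESeq2 called 0 members. In edgeR 1 member had an unadjusted p under 0.05 (Mmp19). Mmp19, Mmp3 and Mmp11 did not overlap, against 28.6% of all genes (14.7% higher and 13.9% lower) in this comparison of 2 tumours with 2. Their log2 fold changes were 0.45 for Mmp19 (SE 0.19), -1.06 for Mmp3 (SE 0.61) and -0.30 for Mmp11 (SE 0.28). Mmp11 measured 36.1, 28.4, 40.9 and 21.5 CPM in KO tumours, 31.6 and 33.9 CPM in Het tumours and 42.6 and 38.0 CPM in WT tumours. KO543 was the lowest, and KO479 lay between the WT tumours.

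Median log2 fold changes over the 20 tested members were 0.13 in KO against WT tumours, 0.088 in KO against Het tumours, 0.078 in Het against WT tumours and 0.11 in KO against the pooled groups. Over all genes tested they were -0.012, 0.018, -0.012 and -0.0081 in the same order. In KO against the pooled groups 13 members were higher and 7 lower. The summed MMP level was 269.7 to 433 FPKM in KO tumours, 233 to 274 FPKM in Het tumours and 239 to 329 FPKM in WT tumours. The TIMP sum was 663 to 759 FPKM in KO tumours, 625 to 817 FPKM in Het tumours and 523 to 739 FPKM in WT tumours. The ratio of TIMP to MMP sums was 1.75 to 2.63 in KO tumours, 2.69 to 2.98 in Het tumours and 2.19 to 2.24 in WT tumours. It was lowest in KO543 and highest in the 2 Het tumours. Gelatinases (Mmp2 and Mmp9) summed to 71.2 to 112 FPKM in KO tumours, 55.5 to 68.0 FPKM in Het tumours and 60.3 to 62.5 FPKM in WT tumours. Mmp28, epilysin, varied little among KO tumours, with 30.8, 31.4, 31.4 and 32.9 CPM in KO tumours, 34.4 and 26.3 CPM in Het tumours and 23.3 and 35.1 CPM in WT tumours.

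The remaining tested mouse members were Mmp23 at 3.97 to 13.0 CPM, Mmp16 at 4.48 to 9.73 CPM, Mmp17 at 1.49 to 4.19 CPM and Mmp25 at 0.199 to 3.71 CPM over the 8 tumours. None of these 4 separated a pair of groups. Mmp16 and Mmp17 are membrane-anchored enzymes, and Mmp25 is best known from leukocytes.

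**Figure D5:**
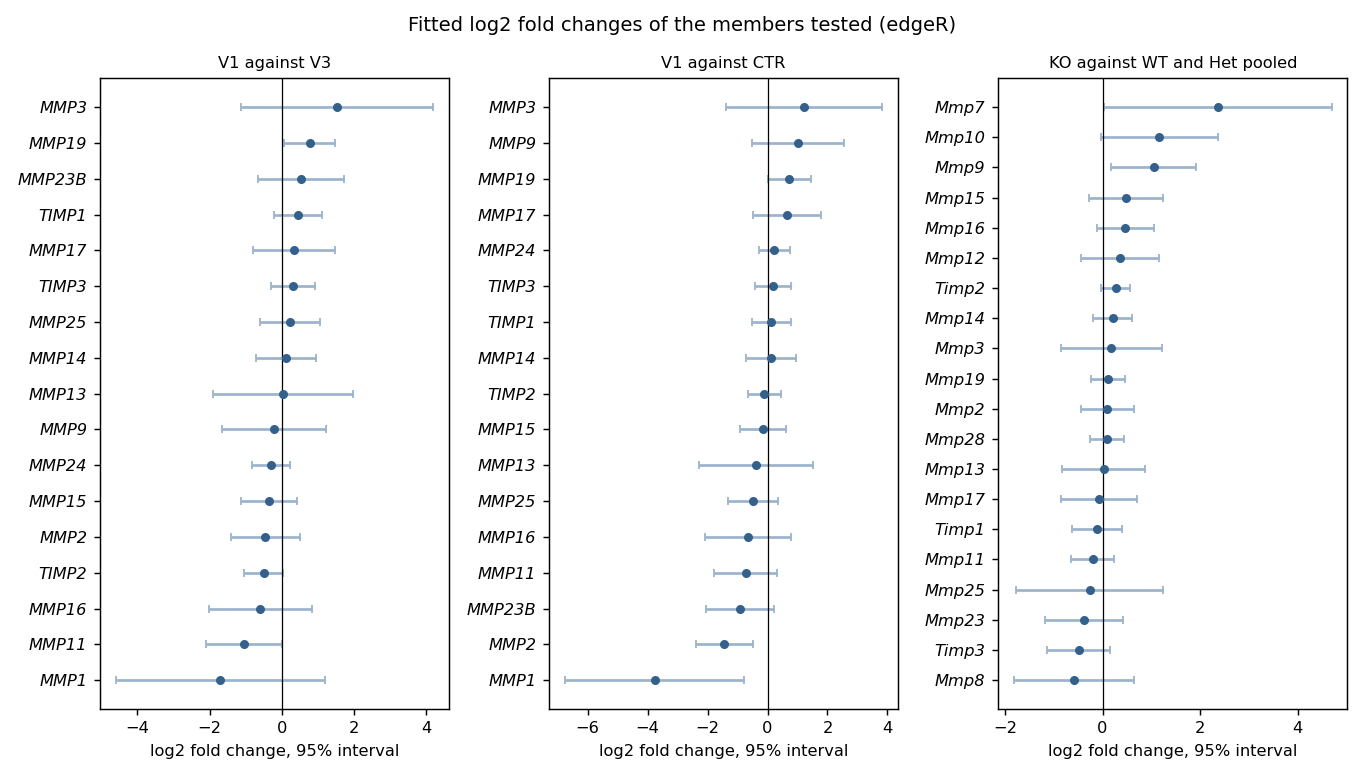
Fitted log2 fold change (point) and 95% interval (bar) of every tested member in V1 against V3 cells, V1 against CTR cells and KO against pooled WT and Het tumours. Fold changes are from the edgeR quasi-likelihood fit, and intervals were derived from its F statistic. Intervals of MMP19 in V1 against V3 cells, of MMP1, MMP2 and MMP19 in V1 against CTR cells, and of Mmp7 and Mmp9 in KO tumours lie clear of 0 before adjustment, and no member passed after it.

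Genes around the family were read from 3 lists: regulators and activators of MMPs (23 genes), the related ADAM and ADAMTS proteinases (31 genes), and the AP-1 and ETS transcription factors that bind many MMP promoters (15 genes). In the tumours this last list also counts Runx1, a RUNX factor of neither family. In each of the 7 comparisons 0 genes of each list passed the edgeR test, while 0 to 7 genes of a list had an unadjusted p under 0.05. The lists were chosen with earlier results of these data known, and genes of a list may vary together, so counts over a list are descriptions. In Met5a cells, AP-1 and ETS factors had a median log2 fold change of 0.079 in V1 against V3 cells (9 higher, 6 lower of 15 tested), 0.30 in V1 against CTR cells (11 higher, 4 lower) and 0.36 in V3 against CTR cells (12 higher, 3 lower), beside medians over all genes of 0.031, 0.010 and -0.0043 in those comparisons. JUN, an AP-1 subunit, measured 801, 238, 290.4 and 205 CPM in V1 cells and 192, 211 and 246 CPM in V3 cells, against 97.2, 128 and 138 CPM in CTR cells. All V1 and V3 libraries lay above all controls (V1 against CTR log2 fold change 1.66, SE 0.43, adjusted p = 0.569). ETS2, an ETS factor, measured 74.7, 40.4, 63.1 and 49.1 CPM in V1 cells, against 20.8, 34.1 and 19.5 CPM in CTR cells. All V1 libraries were above all CTR libraries (log2 fold change 1.19, SE 0.36, adjusted p = 0.569). FOSL1, another AP-1 subunit, measured 194, 169 and 144 CPM in V3 cells, against 54.1, 103 and 23.5 CPM in CTR cells (log2 fold change 1.49, SE 0.46, adjusted p = 0.9998).

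Regulators in Met5a cells included PLAUR, the urokinase receptor, at 35.1, 133, 119 and 86.2 CPM in V1 cells, against 47.7, 57.4 and 36.2 CPM in CTR cells (log2 fold change 0.99, SE 0.38, adjusted p = 0.61). V1 1 lay below all controls, and the other 3 V1 libraries above them. THBS2, thrombospondin 2, which mediates uptake of MMP2, had the smallest p of its list in V1 against V3 cells. It measured 54.1, 34.4, 42.5 and 173 CPM in V1 cells, against 167, 262 and 442 CPM in V3 cells (log2 fold change -1.93, SE 0.53, adjusted p = 0.985). V1 4 lay at the level of V3 1, and the other 3 V1 libraries lay below both. CD44, which docks MMP9 at the cell surface, had a log2 fold change of -0.79 (with SE 0.35 and adjusted p = 0.985) in the same comparison. It measured 236, 148, 173 and 489 CPM in V1 cells, against 485, 458 and 415 CPM in V3 cells. V1 4 lay above all V3 libraries, and the other 3 V1 libraries lay below them. Of the ADAMTS genes, ADAMTS6 measured 36.7, 9.42, 16.5 and 16.7 CPM in V1 cells, against 3.79, 7.52 and 3.83 CPM in CTR cells (log2 fold change 1.97, SE 0.61, adjusted p = 0.569), and all V1 libraries lay above all CTR libraries. The list of ADAM and ADAMTS genes had 10 higher and 14 lower of 24 tested in V1 against V3 cells, and 8 higher and 16 lower in V1 against CTR cells. Of all genes tested, 53.8% and 51.2% were higher in these comparisons.

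In tumours the list of AP-1 and ETS factors, with Runx1 counted, had 15 of 15 genes higher in KO than in WT tumours (median log2 fold change 0.46). Of all genes, 48.4% were higher. Against the pooled groups 15 of 15 were higher (median 0.29). Runx1 had the smallest p of the list in KO against WT tumours (log2 fold change 0.51, SE 0.18, adjusted p = 0.95). None passed the test. An unadjusted p under 0.05 was seen for 7 and 5 of the 15, beside 648 of 16287 and 630 of 15205 genes in these comparisons, which share the KO and WT tumours. These counts describe a list chosen with earlier results known and are no test of it. In KO against Het tumours 12 were higher and 3 lower, with 0 under 0.05, and in Het against WT tumours 12 were higher and 3 lower, with 1 under 0.05. Fosl2 measured 113, 103, 78.1 and 109.6 CPM in KO tumours, 128 and 106 CPM in Het tumours and 51.9 and 79.1 CPM in WT tumours. KO479 lay just under WT568, and both Het tumours above both WT tumours. Fos measured 176, 10.3, 19.7 and 58.9 CPM in KO tumours, 15.4 and 20.7 CPM in Het tumours and 13.7 and 19.2 CPM in WT tumours. KO437 and KO543 were high, and KO445 was the lowest tumour. Plau, the urokinase that activates plasminogen and through it proMMPs, measured 318, 416, 215 and 726 CPM in KO tumours, 225 and 335 CPM in Het tumours and 187 and 157 CPM in WT tumours. Its log2 fold change was 1.28 (SE 0.43, adjusted p = 0.95) in KO against WT tumours, with all 4 KO tumours above both WT tumours. Adamdec1, an ADAM-like proteinase of macrophages, measured 39.7 CPM in KO543 and at most 2.23 CPM elsewhere. ADAM and ADAMTS genes had 21 higher and 7 lower of 28 tested in KO against WT tumours, 14 higher and 14 lower in KO against Het tumours, and 25 higher and 3 lower in Het against WT tumours. Of all genes tested, 48.4%, 53.1% and 48.5% were higher in the same order. The comparisons with WT share the same WT tumours, and these counts too are no test.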

How the data were processed

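RNA from Met5a cells and KPCA tumours was sequenced, and the authors deposited 1 table of raw counts per gene and 1 of FPKM per species. FPKM in the deposited tables equals the count divided by gene length and by 1 factor per library. The aligner, the counter and the strand setting were not given in the sources used here. A column kit was used for RNA, per the labels' protocols. Groups came from the sample titles. The family members and gene lists were chosen with earlier results of these data known.

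Counts were tested with edgeR 4.0.16 (R 4.3.3; TMM factors, filterByExpr with a minimum count of 10, quasi-likelihood test, Benjamini-Hochberg adjustment over all genes tested, threshold 0.05), with all 10 Met5a libraries in 1 fit and all 8 tumours in another. CPM used TMM-scaled library sizes. Permutation tests were exact and two-sided, on mean log2 CPM with a prior count of 2. Levels of different genes were compared on FPKM. Limits for 0 counts used 3 counts and cover counting error only. Total counts ran from 15489888 to 28070669 per library.

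Members given library by library had groups that did not overlap and a mean of at least 1 CPM, or a mean of at least 20 CPM. Of the related lists, genes with the 2 smallest p-values per comparison were eligible to be named. Alternatives were RLE factors, no filter, DESeq2 1.42.0, limma 3.58.1 on log2(FPKM + 1) and log2(FPKM + 0.1), fits of the compared groups alone, each library left out, the replicate number as a block, and for tumours the title number, split into low and high, as a covariate. Leaving out KO543 with WT438, and V1 1 with CTR 3, was added after the data were seen. Human gene coordinates are those of GENCODE 29 on GRCh38, which the deposited human table matches for all 27 members. Promoters are RefSeq sequence.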

Additional observations from a re-analysis of the deposited data

Results flagged for a closer look

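Within groups of 4 libraries, 33 combinations of group and gene with a mean of at least 1 CPM were checked by Dixon's test at the 95% level. In 6 of them 1 library lay far from the other 3. Chance gives about 1 in 20 for independent combinations, but these share libraries, so no excess can be read from the count. MMP1 measured 2.61 CPM in V1 1 and 0.347 to 0.695 CPM in the other 3 V1 libraries. TIMP2 measured 272 CPM in V1 1 and 450.4 to 487 CPM in the others. MMP25 measured 1.32 CPM in V1 3 and 2.78 to 2.95 CPM in the others. MMP10 measured 0.116 CPM in V1 4, which is 2 counts, and 0 CPM in the others, within what a count of 0 allows. CTR 1 alone raised its mean past the limit, and with 0 counts in 3 libraries any count in the other is flagged.

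In KO tumours both combinations singled out KO543. Mmp14 measured 749 CPM in KO543 and 463 to 489 CPM in the other 3 KO tumours. Mmp15 measured 31.6 CPM in KO543 and 9.96 to 13.1 CPM in the others.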

How the results depend on the processing

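Member calls stayed at 0 in all 7 comparisons under every alternative except the fit with no filter on low counts, which called 3 members in V1 against CTR cells, 1 in V3 against CTR cells, 1 in KO against WT tumours, 2 in KO against Het tumours and 1 in Het against WT tumours. They included MMP1 and MMP2 in V1 against CTR cells and Mmp3 in Het against WT tumours. Mmp9 was called in KO against WT and KO against Het tumours, and Timp3 in KO against Het tumours. The fit with no filter also called 533, 226, 276, 154 and 63 of all genes in those 5 comparisons, and the cause was not tested. Leaving out 1 library at a time gave 0 member calls. DESeq2 called 0 members and 1, 58, 10, 5, 3, 1 and 1 of all genes in V1 against V3, V1 against CTR, V3 against CTR, KO against WT, KO against Het, Het against WT and KO against the pooled groups, where edgeR called 0, 1, 0, 0, 0, 0 and 0. With the replicate number as a block, member calls were 0 in the 3 Met5a comparisons and all-gene calls 3, 0 and 0 in V1 against V3, V1 against CTR and V3 against CTR cells. The numbers did not pair the libraries, since the 9 same-numbered pairs correlated at -0.19 to 0.29 and 1 exceeded 0.1. Title numbers of tumours are not shared between groups, so no tumour was paired.

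Of 297 alternatives to 20 single fold changes, 296 kept the direction, and 6 passed the threshold, all in the fit with no filter. Apart from those of MMP1 and Mmp9, these fold changes were chosen because their groups did not overlap in the same libraries. That choice nearly fixes the direction in advance, so the count of directions kept adds no support. MMP1 in V1 against CTR cells ranged over -4.68 to 0.040 on the log2 scale with 1 library left out, the highest value without CTR 1. Mmp3 and Mmp11 in Het against WT tumours were -1.63 and -0.062 with the title number as a covariate, and Mmp11 was -0.19 without WT438.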

Other observations

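Over libraries, some members varied together, which is a description over libraries that share groups and depth. Over the 10 Met5a libraries the member most like MMP14 was TIMP2 (Pearson r = 0.63 of log2 CPM), with TIMP1 close behind (r = 0.57). The member most like MMP2 was MMP23B (r = 0.69), both highest in CTR 3. Over the 8 tumours Mmp15 was most like Mmp14 (r = 0.84), both highest in KO543, followed by Mmp10 (r = 0.81) and Mmp3 (r = 0.69) rather than Timp2. Mmp17 was most like Mmp2 (r = 0.86), both lowest in KO543, and Mmp13 was most like Timp1 (r = 0.81).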
